A study of Mus musculus with 2 samples.

Results

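The 4 Notch receptors (Notch1, Notch2, Notch3 and Notch4), the 5 DSL ligands (Dll1, Dll3, Dll4, Jag1 and Jag2) and the glycosyltransferase Lfng were followed in RNA of the embryonic mouse central nervous system. The 10 genes were picked by symbol, through their Ensembl identifiers, from 43346 genes in the deposited gene tables, and all 10 were found. The tissue came from C57BL/6J embryos at embryonic day 14, with male and female littermates pooled, and carried no treatment or genetic change in the labels. There was 1 group, made of 2 biological replicates that are separate biosamples. Poly(A)+ RNA depleted of ribosomal RNA was sequenced as stranded paired-end libraries with ERCC spike-ins. No contrast between conditions exists in this design, so levels, transcripts, splice junctions and the spread between the replicates are described, and no p-value is given.

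Notch signalling passes between touching cells. A Delta-like or Jagged ligand on one cell pulls on a Notch receptor of its neighbour, the receptor is cut by an ADAM protease and then by gamma-secretase, and the freed intracellular domain joins Rbpj and Mastermind proteins in the nucleus to switch on genes of the Hes and Hey families. In the ventricular zone, newborn neurons that carry Dll1 keep their neighbours as radial glia, a relation called lateral inhibition, while Dll4, Jag1 and Notch4 are known from blood vessels and Notch3 from the mural cells around them. Fringe enzymes such as Lfng add N-acetylglucosamine to O-fucose on the EGF repeats of the receptors and alter which ligands they answer.

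The libraries held 99528934 and 134760822 expected counts on genes in replicates 1 and 2. Features that are no gene took 3.11% and 2.66% of all counts. Neural marker lists were high in both libraries: the 6 markers of postmitotic neurons summed to 2980 and 3384 TPM, and the 8 markers of radial glia to 1984 and 2241 TPM (TPM is a level per effective length that sums to the same total in each library). The replicates stood apart in non-neural tissue. Marker sums in replicates 1 and 2 were 402 and 8.02 TPM for 6 skeletal muscle genes, 738 and 114 TPM for 6 cartilage genes, 141 and 15.5 TPM for 6 genes of skin and epithelia, and 69.1 and 5.80 TPM for 6 genes of inner ear epithelium. All 6 muscle genes and all 6 skin genes were at least 2-fold lower in replicate 2, and so were 5 cartilage and 4 inner ear genes. Among the 14340 genes with a mean count of at least 200, 567 were. No marker of these lists was at 0 in both libraries. The part of such tissue in the values below was not tested, and every value is therefore given for each replicate.

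Among the receptors, Notch1, the main receptor of radial glia, was measured at 23.8 TPM in replicate 1 and 26.2 TPM in replicate 2, a mean of 25.0 ± 1.67 (SD, n = 2). Notch3 followed at 22.6 and 20.3 TPM (21.4 ± 1.63). Notch2, which radial glia also use, was at 16.1 and 14.9 TPM (15.5 ± 0.820). Notch4, known from endothelium, was listed at 11.1 and 10.1 TPM (10.6 ± 0.693). By TPM of all transcripts the order of the receptors was the same in both libraries, and the ranges of neighbouring receptors did not overlap. By coding transcripts alone Notch1 and Notch3 overlapped, and Notch3 was first in replicate 1 (22.6 against 22.2 TPM). Notch3 has 1 transcript, so only Notch1 could lose TPM by this step. Notch1 made up 32.4% and 36.6% of receptor TPM, Notch3 30.7% and 28.4%, Notch2 21.9% and 20.9%, and Notch4 15.05% and 14.1%. The receptor sum was 73.5 TPM in replicate 1 and 71.4 TPM in replicate 2 (72.5 ± 1.47).

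Dll1, the ligand of lateral inhibition, was the highest of the 10 genes in both libraries, with 42.8 TPM in replicate 1 and 61.3 TPM in replicate 2 (52.0 ± 13.1, SD, n = 2). It ranked 3373 among 21474 protein-coding genes by mean TPM. Dll3, a divergent Delta-like protein that acts within its own cell rather than as an activating ligand, was at 21.3 and 28.1 TPM (24.7 ± 4.75). Dll4, known for its role in tip cells of growing vessels and in spinal progenitors, was the lowest by mean at 7.16 and 5.90 TPM (6.53 ± 0.891), rank 10773. Of the Jagged ligands, Jag2 was at 28.1 and 24.6 TPM (26.4 ± 2.496) and Jag1 at 8.03 and 5.73 TPM (6.88 ± 1.63). Both libraries thus held the same pair of low ligands, Dll4 and Jag1, whose ranges overlapped.

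Dll1 accounted for 39.8% and 48.8% of ligand TPM in replicates 1 and 2. Jag2 accounted for 26.2% and 19.6%, and Dll3 for 19.9% and 22.3%. Jag1 and Dll4 made up 7.48% and 6.67% in replicate 1, and 4.56% and 4.70% in replicate 2. The 5 ligands summed to 107 and 126 TPM (116 ± 12.8), above the receptor sum in each library. On CPM, which is not per length, the order turned, with a mean of 362 for the receptors and 209 for the ligands. The Delta-like genes summed to 71.2 and 95.2 TPM and the Jagged genes to 36.2 and 30.3 TPM. The log2 ratio of Delta-like to Jagged TPM was 0.98 in replicate 1 and 1.65 in replicate 2 (1.31 ± 0.48), above 0 in both libraries but with a spread over a wide range. These ligand and Delta-like sums count Dll3 (21.3 and 28.1 TPM), which is not an activating ligand, and no ratio was taken without it. Dll1 alone, at 42.8 and 61.3 TPM, was above the Jagged sum in each library.

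Lfng was second of the 10 genes in both libraries, at 31.2 TPM in replicate 1 and 41.6 TPM in replicate 2 (36.4 ± 7.35, SD, n = 2), rank 4677 of the protein-coding genes. The whole order by mean TPM ran Dll1, Lfng, Jag2, Notch1, Dll3, Notch3, Notch2, Notch4, Jag1 and Dll4. The middle of that order was not settled. Jag2 held place 3 in replicate 1 and place 5 in replicate 2, Dll3 held places 6 and 3, and the ranges of Jag2 and Notch1, of Notch1 and Dll3, and of Dll3 and Notch3 overlapped. Dll1 against Lfng, Lfng against Jag2, and the steps from Notch3 down to Jag1 showed no overlap.

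**Figure D1:**
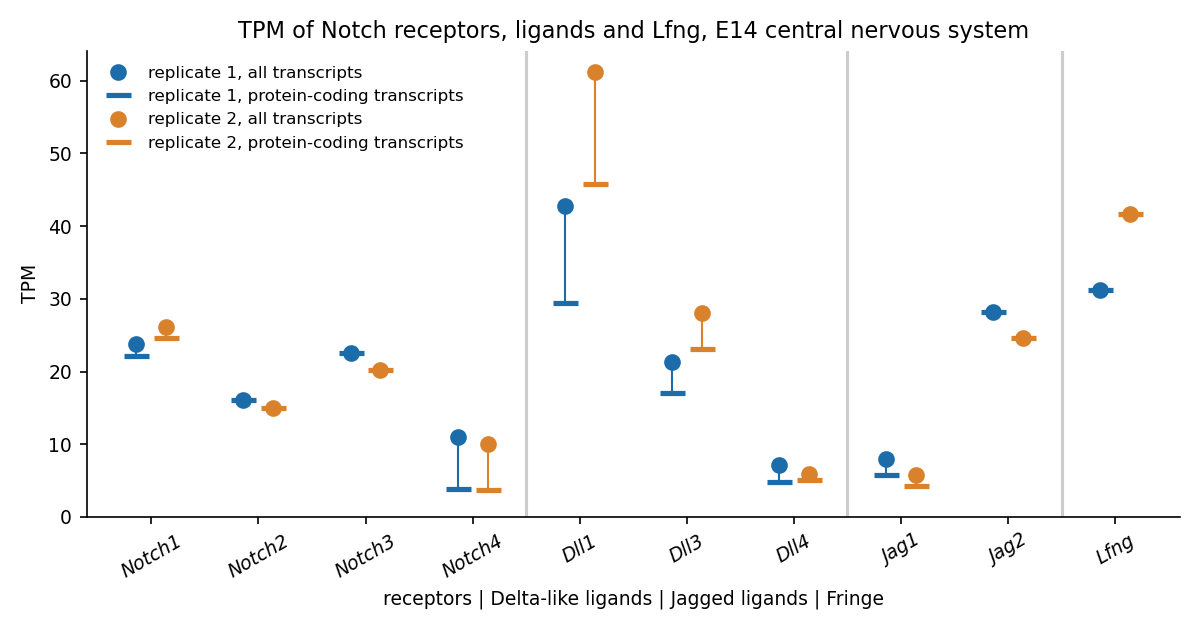
TPM (vertical axis) of each gene in replicate 1 (blue) and replicate 2 (orange); dots are all transcripts, dashes are protein-coding transcripts alone, and each line joins the pair. Dll1 lies highest, at 42.8 and 61.3 TPM, and the gap between dot and dash is wide for Notch4 and Dll1 and absent for Notch2, Notch3, Jag2 and Lfng.

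The earlier tables of the series, made on mm9 with Ensembl 65 gene models, gave a similar order by RPKM (reads per kilobase, scaled to depth), averaged over their 2 value fields. By these means Dll1 was again first at 5.51 RPKM and Lfng second at 4.002 RPKM. The last places were again Notch4 at 1.17, Jag1 at 0.890 and Dll4 at 0.753 RPKM. Those genes were lowest in each field, but their order was not settled. Field by field, Notch4 was at 1.55 and 0.785, Jag1 at 0.722 and 1.06, and Dll4 at 0.762 and 0.744 RPKM. In field 2, Notch1 (3.70) was above Lfng (3.47). In between stood Notch1 at 3.64, Dll3 at 3.59, Jag2 at 2.86, Notch3 at 2.54 and Notch2 at 2.00 RPKM. No label ties a field to a replicate, and both tables come from the same experiment, so this is a second processing and not a second sample.

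The spread of the members between the replicates was read beside that of all genes with enough counts. The log2 ratio of replicate 2 to replicate 1 was taken on expected counts scaled by TMM (edgeR's trimmed mean of M values) with a prior count of 1. None of the 10 members was at least 2-fold apart, where 4.24% of the 14340 genes with a mean count of at least 200 were (567 lower and 41 higher in replicate 2). At so low a share, finding none among 10 genes does not set the members apart. The median absolute log2 ratio was 0.17 for the members and 0.15 for those genes. At a smaller step of 1.3-fold, chosen after the values were seen, 4 of the 10 members and 17.5% of those genes were apart. The members' median log2 ratio was -0.03 (0.0073 when scaled by ERCC counts), with 5 above and 5 below 0, and the median over the 14340 genes was 0.02.

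Dll1 was the member furthest apart. It had 6515 and 13322 counts, or 64.9 and 99.6 CPM (counts scaled to depth, not to length), a log2 ratio of 0.62 with a 95% exact binomial interval of 0.57 to 0.66, and 8.89% of genes were at least as far apart. Such intervals cover counting error only. Dll3 had 2754 and 4938 counts and a log2 ratio of 0.43 (0.36 to 0.50). Lfng had 4120 and 7338 counts and a log2 ratio of 0.42 (0.36 to 0.47). These 3 genes had the highest ratios of the 10. Jag1 had the lowest, with 2148 and 2103 counts and a log2 ratio of -0.44 (-0.53 to -0.36).

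The receptors were closer. Notch1 had 13118 and 19348 counts and a log2 ratio of 0.15, Notch3 had 11209 and 13410 counts and a log2 ratio of -0.16, and Notch2 had 10495 and 12975 counts and a log2 ratio of -0.11. Notch4 had 1765 and 2241 counts and a log2 ratio of -0.07, with an interval of -0.16 to 0.02 that takes in 0. Jag2 had 6869 and 8012 counts and a log2 ratio of -0.19. Dll4 had 1162 and 1549 counts (exact Poisson 95% intervals 1096 to 1231 and 1473 to 1628) and a log2 ratio of 0.00 with an interval of -0.11 to 0.11, and a ratio of -0.02 when scaled by total counts. The pattern within the ligands was therefore mixed: Dll1 and Dll3 were higher, Jag1 and Jag2 lower, and Dll4 level by counts. Of the genes with a mean count of at least 200, 14.8% were at least as far apart as Dll3 and 14.0% as Jag1. For Jag2 the share was 39.0%, near the 47.4% of Notch3, so its step was a common one.

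Marker lists of the cells these genes are known from stood as follows beside those ratios. All 8 genes of committed progenitors and newborn neurons were higher in replicate 2, with sums of 288 and 466 TPM and a median log2 ratio of 0.70. In that list Gadd45g (96.6 and 128 TPM) and Neurog2 (43.1 and 97.1 TPM) were highest and Neurog1 (8.37 and 15.8 TPM) lowest, and Neurog2 and Eomes were at least 2-fold apart with log2 ratios of 1.18 and 1.16. All 8 radial glia genes were also higher in replicate 2, with a median of 0.29, and the highest of them, Vim and Fabp7, had log2 ratios of 0.05 and 0.24, while Prom1 was lowest at 18.1 and 23.0 TPM. The 10 endothelial genes summed to 233 and 217 TPM with a median of -0.13, led by Cldn5 and Cdh5, and Flt1 was lowest at 4.38 and 4.21 TPM. The 6 genes of arterial endothelium summed to 186 and 212 TPM with a median of 0.12, and 4 of them were above 0. Cxcr4 and Efnb2 led, each above all endothelial genes but Cldn5, so this list may not mark arterial cells alone. Hey1 is also in the list of direct targets, and Sox17 is also in the endothelial list. Gja4 had a log2 ratio of -0.02, and Gja5, the lowest, was 2-fold apart with a log2 ratio of -1.28. The 10 genes of pericytes and vascular smooth muscle summed to 159 and 91.2 TPM with a median of -0.85, Rgs5 was at 21.1 and 26.1 TPM, and Acta2, Cspg4, Des and Myh11 were at least 2-fold lower in replicate 2. The 6 somite genes summed to 10.3 and 6.60 TPM with a median of -0.59. Of them, 4 were lower in replicate 2, and Meox1 was at least 2-fold lower. In other lists the median was 0.12 for postmitotic neurons, 0.12 for microglia and blood leukocytes and 0.51 for choroid plexus. None of these lists had a gene at 0. Their part in the members' ratios was not tested, and in bulk tissue fewer cells of a type and less RNA per cell cannot be told apart.

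**Figure D2:**
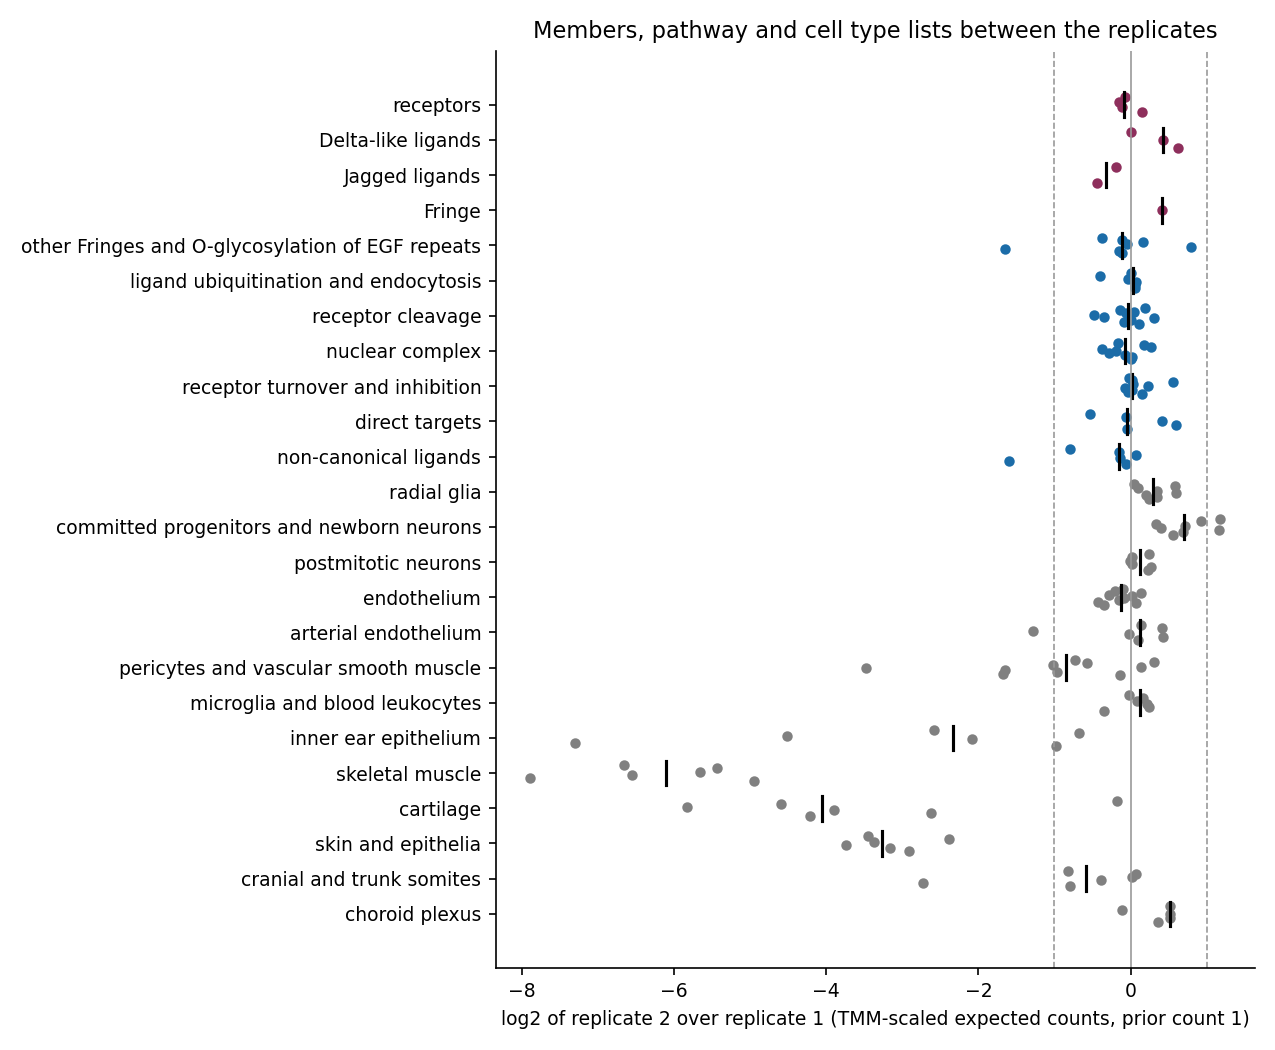
The log2 ratio of replicate 2 to replicate 1 (horizontal axis) for each gene of the member lists (purple), pathway lists (blue) and cell type lists (grey); black bars are list medians and dashed lines mark 2-fold. The members lie between -0.44 and 0.62, inside the 2-fold lines. Of the 14340 genes with a mean count of at least 200, 4.24% are at least 2-fold apart. The muscle list has its median at -6.10.

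Most of the TPM of the 10 genes lay in protein-coding transcripts: 85.4% in replicate 1 and 87.1% in replicate 2. The tables list 40 transcripts for them, 12 protein-coding by their GENCODE M21 class, 11 with a retained intron, 14 processed transcripts and 3 marked for nonsense-mediated decay. By fragments the coding share was larger, 98.1% and 98.3% of expected counts, because the other transcripts are short and TPM divides by length. Notch2, Notch3, Jag2 and Lfng had 1 transcript each, so nothing about their isoforms can be read from the tables.

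Notch4 departed most from that picture. Its coding transcript Notch4-201 (6591 bases) had 3.91 and 3.74 TPM, only 35.4% and 37.1% of the gene's TPM. Notch4-210, a processed transcript of 619 bases in the last exons of the gene (GRCm38 chr17:34587041-34587818, plus strand), had 4.95 and 4.70 TPM, or 44.8% and 46.7%. Notch4-202, of 247 bases at the same end, had 1.57 and 0.80 TPM, or 14.2% and 7.94%, and these rest on 5.08 and 4.05 expected counts over an effective length of 51.1 and 60.0 bases. By fragments, 89.7% and 90.0% of the counts of Notch4 were assigned to Notch4-201. With coding transcripts alone, Notch4 was last of the 10 genes in both libraries (3.83 ± 0.120 TPM, SD, n = 2) and made up 6.04% and 5.89% of receptor TPM.

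The ligands held smaller non-coding parts. Dll1-201 (3581 bases) carried 28.04 and 43.7 TPM, 65.6% and 71.4% of the TPM of Dll1. The retained-intron transcripts Dll1-204, Dll1-202 and Dll1-203 carried 18.3%, 5.71% and 5.33% in replicate 1, and 16.3%, 4.84% and 3.73% in replicate 2. Dll3-201 carried 80.0% and 82.3% of Dll3, and Dll3-202, with a retained intron at the 3′ end, 15.3% and 14.5%. Jag1-201 carried 71.4% and 74.4% of Jag1, and Jag1-202 28.6% and 25.6%. Notch1-201 held 93.2% and 93.9% of Notch1, and no other Notch1 transcript reached 5% in either library.

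Transcript shares were not stable between the 2 processings of the series. In the mm9 transcript table, Notch1-201 had 6.59% and 6.47% of the gene's RPKM in the fields, and ENSMUST00000114062, a model that is not in the mm10 tables, had 51.1% and 32.7%. Dll3-201 had 11.01% and 16.0% there, and ENSMUST00000050191, likewise not in the mm10 tables, 40.6% and 37.6%. Notch4-201 had 8.90% and 14.9%. Notch4-210, which led Notch4 in the mm10 tables, had 45.6% and 9.07%, and Notch4-211 had 17.7% and 51.3%. Both were far apart between the fields. Dll1-201 (84.2% and 76.2%), Jag1-201 (67.7% and 63.7%) and Dll4-201 (75.7% and 78.9%) led their genes in both tables. The shares given here for Notch1, Dll3 and Notch4 therefore belong to the mm10 tables and their models.

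Dll4 showed how much a short transcript can move a gene's TPM. Dll4-202, a processed transcript of 692 bases, was given 2.31 TPM in replicate 1 and 0.85 TPM in replicate 2, or 32.3% and 14.4% of the gene, from 72.4 and 36.1 expected counts. The coding Dll4-201 was nearly level, at 4.85 and 5.05 TPM. Dll4 was therefore lower in replicate 2 by gene TPM and level by scaled counts and by coding TPM. The effective length of the gene, an average over its transcripts, was 2564 bases in replicate 1 and 3120 bases in replicate 2.

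With coding transcripts alone, a comparison added after the data were seen, Dll1 (29.5 and 45.8 TPM) and Lfng (31.2 and 41.6 TPM) overlapped, and Lfng was first in replicate 1. Jag2 then stood apart from Notch1, and Jag1 (5.00 ± 1.04 TPM, SD, n = 2) and Dll4 (4.95 ± 0.141 TPM) could not be ordered. Lfng, Jag2, Notch2 and Notch3 have 1 transcript each, which is coding, so this step could lower only the other genes. The direction of the shifts against those genes was therefore set by the transcript models. The log2 ratio of Delta-like to Jagged TPM became 0.60 in replicate 1 and 1.36 in replicate 2, with Dll3 still counted. Coding Dll1 alone was below the Jagged sum in replicate 1 (29.5 against 33.9 TPM) and above it in replicate 2 (45.8 against 28.9 TPM). Dll4 would add 4.85 and 5.05 TPM to Dll1.

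**Figure D3:**
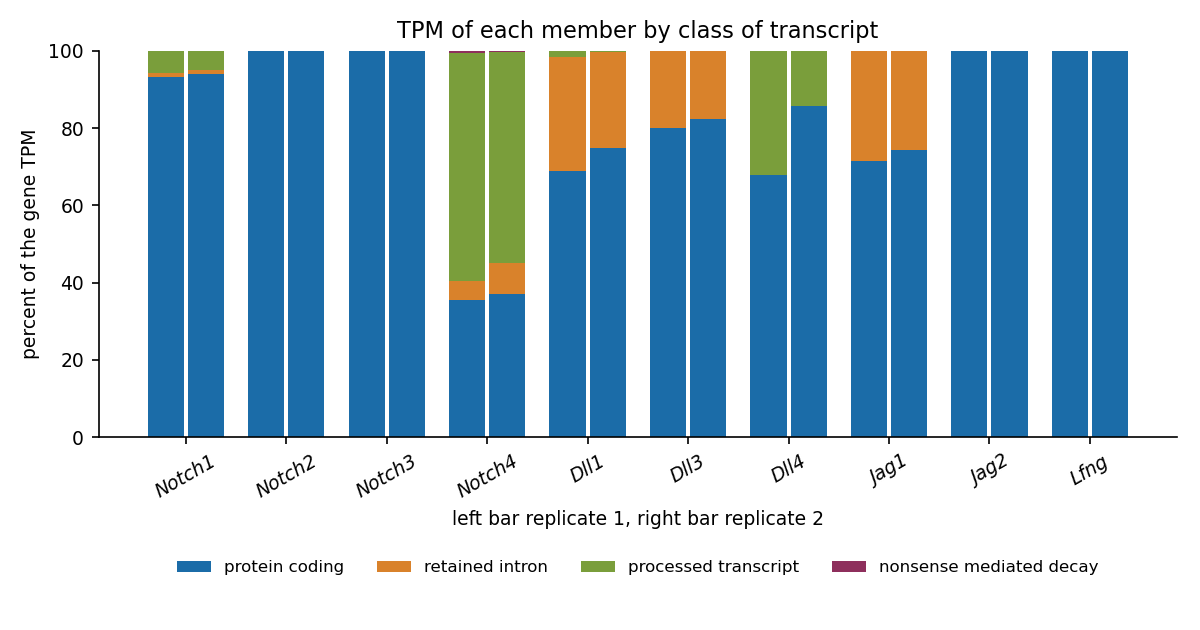
Share of each gene's TPM (vertical axis, percent) by class of transcript; the left bar of each pair is replicate 1 and the right bar replicate 2. Coding transcripts (blue) hold 35.4% and 37.1% of Notch4, the lowest shares, and all of Notch2, Notch3, Jag2 and Lfng.

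Reads over splice junctions, counted on mm9 in the junction table, bear on these models without any estimate of transcript shares. The main coding transcripts of the 10 genes have 212 introns, and all 212 had reads. Over all Ensembl 65 models of the members, 220 of 240 introns had at least 1 read, summed over both fields. The 20 introns with none lay outside the main coding transcripts: 10 in Notch1, 5 in Notch4, 3 in Notch2 and 2 in Dll3. They include introns of ENSMUST00000114062 of Notch1 and ENSMUST00000050191 of Dll3, the models with the highest mm9 share of their genes. The joints that Notch4-211 alone holds had 0, 1, 2 and 4 reads. Joints of Notch4-201 that share a splice site with them had 36, 78 and 57. Lfng had a median of 1333 reads over its 7 introns, Dll1 787 over 10, Jag2 738 over 25 and Dll3 514 over 8. Notch3 had 474 over 32, Notch1 409 over 33 and Notch2 238 over 33. Dll4, Jag1 and Notch4 had the lowest medians, 139 over 10, 124 over 25 and 60 over 29. Notch4 was thus lowest of the 10 by junctions, as it was by coding TPM.

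Along Notch4 the junction reads changed near the 3′ end. Its first 26 introns had a median of 59.5 reads, and introns 27, 28 and 29 had 150, 216 and 202. The median of the last 3 introns was 3.39 times that of the others, against 0.922 times in Dll1 and 1.71 times in Notch1, the extremes of the other 9 genes. Intron 29 is shared by Notch4-201 and Notch4-210, whereas neither Notch4-210 nor Notch4-202 holds the joints of introns 27 and 28. Notch4-202 joins its own 5′ splice site to the 3′ site of intron 29, and that joint had 17 and 16 reads in the fields, 13.3% of the 249 reads at that 3′ site. A further 14 of those reads came from an unannotated joint that skipped the exon between introns 28 and 29. The sequences over the joint (GRCm38, GENCODE M21 transcripts, plus strand) show the shared last exon in capitals after differing upstream exons.
Notch4-201, intron chr17:34587215-34587373: gcccaggacagtaggGAACAGACGCCGCTT
Notch4-202, intron chr17:34587064-34587373: gtgggaaactaaaagGAACAGACGCCGCTT
The 15 bases after the joint are the same, so only reads that reach the lower-case side tell the transcripts apart.

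**Figure D4:**
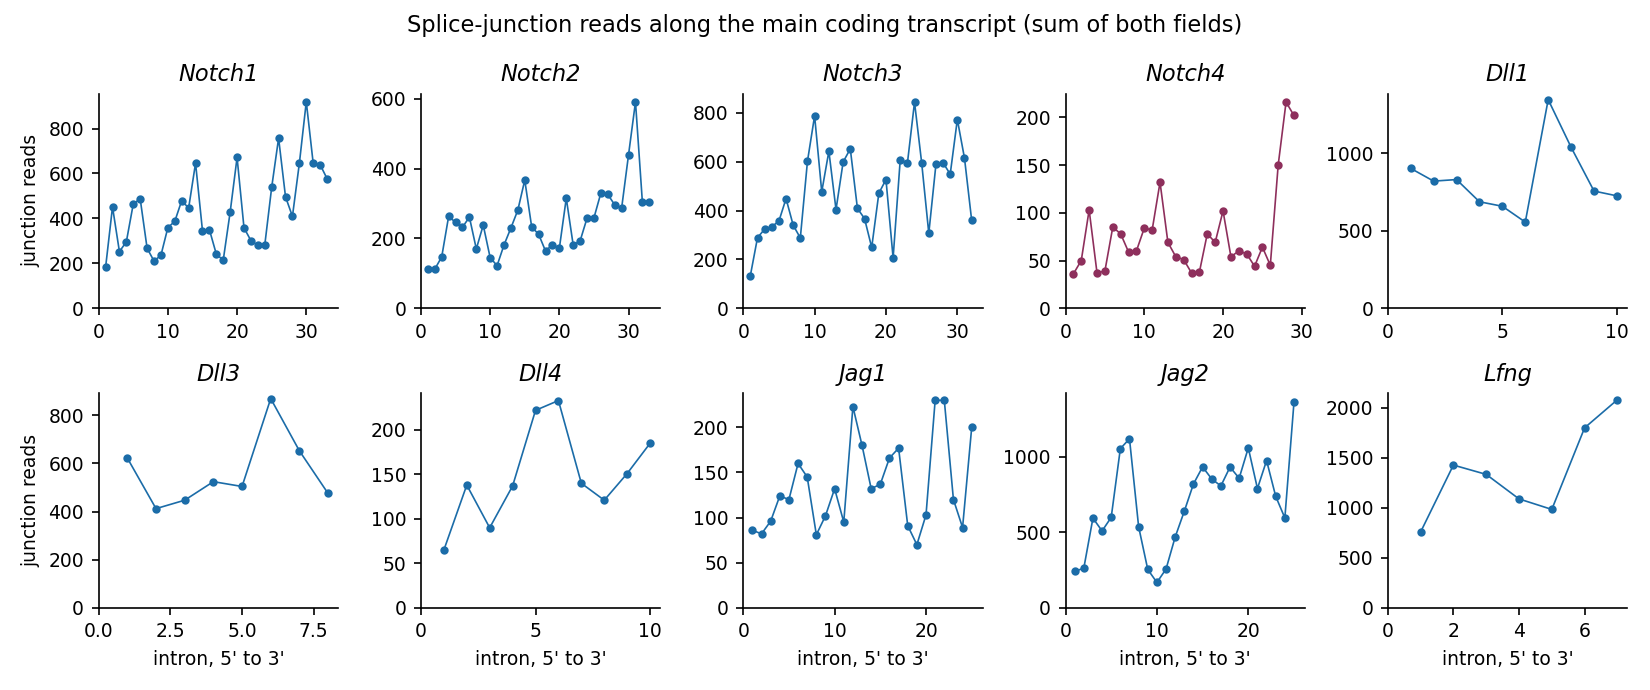
Junction reads summed over both fields (vertical axis, linear, scaled per panel) at each intron of the main coding transcript, numbered from the 5′ end (horizontal axis). Notch4 (purple) steps up at its last 3 introns to 150, 216 and 202 reads, from a median of 59.5.

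For Dll4 the joint that marks Dll4-202 had 1 read, against 121 for the joint of Dll4-201 from the same 5′ splice site, a share of 0.820%. The 2 joints (GRCm38, plus strand) differ in the exon after the splice, shown in capitals.
Dll4-201, intron chr2:119331182-119332142: acccgtgtgccaatgGAGGCCAGTGCCAGA
Dll4-202, intron chr2:119331182-119332037: acccgtgtgccaatgGCTGAACACACGGTG
The junction share was thus far below the 32.3% and 14.4% of TPM estimated for that transcript, though the tables differ in build and in what they count. For Dll1, a joint of the minor coding transcript Dll1-205 had 44 reads.

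Few junction reads of the members fell outside the Ensembl 65 models. The share ran from 0.530% in Dll3 to 3.07% in Notch4, and 15 such junctions had at least 10 reads. Jag2 held 5 of them. A Jag2 junction skipped the exon between introns 9 and 10, which is 114 bases long and so a multiple of 3, with 33 and 14 reads in the fields (mm9 chr12:114153729-114154090, minus strand). Introns 9 and 10 had 254 and 168 reads, and skipping made up 15.6% of the reads at its 5′ site and 21.9% of those at its 3′ site. GENCODE M21 lists this joint in Jag2-209. Another 2 Jag2 junctions left the 5′ splice site of intron 15 for 3′ sites 47 bases nearer and 34 bases farther, with 67 and 56 reads beside 933 at the annotated site. Neither shift is a multiple of 3, and M21 lists neither joint.

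Notch4 and Notch2 each had a further 5′ splice site before an annotated 3′ site. In Notch4 it lay 114 bases closer to the 3′ site of intron 27, a multiple of 3, with 9 and 12 reads or 12.3% of the reads at that site. In Notch2 it lay 311 bases closer to the 3′ site of intron 25, with 7 and 15 reads or 7.77%. Lfng had a joint that skipped the 100-base exon between introns 2 and 3 with 13 reads, 0.900% and 0.964% of the reads at its 5′ and 3′ sites. These counts are small, and no direction is read between the fields.

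Promoters were examined because Dll1, Dll3 and Lfng were higher together in replicate 2, a pattern seen first. RefSeq promoter windows (GRCm38.p6, 250 bases before to 50 after a start) were found for all 10 members, 11 windows with 2 for Dll1. In all, 9 motifs were searched on both strands over 32817 windows. TGGGAA, the core of the Rbpj site, was in 25.6% of all windows and, of the members, in Lfng alone, where it occurred at -135 and -108 from the start. The second match was part of CGTGGGAA, a longer form found in 0.734% of windows, and overlapped the E-box CACGTG, found in 7.15% of windows and in Lfng alone of the members. TGTGGGAA was in 1.86% of windows and in none of the members'. CAGCTG, an E-box of the kind proneural factors bind, was in 16.3% of windows and in 4 of the 11 member windows. Dll1 had CAGCTG only in its upstream window, chr17:15376883-15377182. Its other window, chr17:15375774-15376073, holds the start of the main coding transcript Dll1-201 and had no match to CAGCTG. The TGGGAA match inside the longer form in Lfng is shown because no other member window holds it. Every CAGCTG match is shown after it, a choice made with the ratios known. CACGNG and CANNTG recur in more member windows and are not shown. The motif is in capitals.
Lfng, chr5:140607221-140607250, plus strand: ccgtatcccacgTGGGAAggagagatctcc
Lfng, chr5:140607183-140607212, plus strand: ccgtgggtacccCAGCTGggtggttcccag
Lfng, chr5:140607330-140607359, plus strand: gcgagaggcgcgCAGCTGgaccgggagcct
Dll1, chr17:15377047-15377076, minus strand: tgcattaccataCAGCTGagcgcacaaaga
Dll3, chr7:28301775-28301804, minus strand: tccggcatccagCAGCTGcgactcctgaga
Jag1, chr2:137116585-137116614, minus strand: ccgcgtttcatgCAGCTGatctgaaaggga
Of the genes with CAGCTG, Dll1, Dll3 and Lfng were higher in replicate 2 and Jag1 was lower. Whether the motif bears on these ratios was not tested, and there is 1 library on each side. CANNTG was in 72.3% of all windows and 6 member windows, CACGNG in 27.5% and 8, CAGATG in 17.2% and TATAAA in 13.6%, the last pair in no member window. The share of G and C in member windows ran from 52.0% in Dll3 to 86.0% in Jag2, with a median of 52.7% over all windows. A match is a string of letters, not a bound site, and nothing here measures binding.

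Of the rest of the pathway, all 53 genes of 7 pathway lists had a mean of at least 1 TPM. The share of all genes at that level was not taken, so this count does not set the pathway apart. Of the 53, 23 had a log2 ratio above 0 and 30 below, with a median of -0.03. At least 2-fold apart were 2 of the 53, beside 4.24% of the 14340 genes with a mean count of at least 200. Among the enzymes that modify EGF repeats, Rfng (94.97 and 87.9 TPM), the Fringe that is widely expressed, and the O-glucosyltransferase Poglut1 (49.4 and 54.2 TPM) were highest by mean. The xylosyltransferase Gxylt2 was lowest (7.54 and 2.31 TPM) and was 2-fold apart, with a log2 ratio of -1.65. Mfng, the remaining Fringe, is named after its values were seen: it was at 34.2 and 61.0 TPM, a log2 ratio of 0.80. Lfng, at 31.2 and 41.6 TPM, thus lay below Rfng and Mfng in both libraries.

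Of the 6 genes that act on the ligands, 3 had a log2 ratio above 0 and 3 below. The endocytic adaptor Epn1 (113 and 119 TPM) and the ubiquitin ligase Mib2 (81.2 and 77.9 TPM) were highest by mean, and Neurl1b lowest (5.74 and 5.94 TPM). The ligase Neurl1a, named after its values were seen, was furthest apart at 8.60 and 6.5 TPM, a log2 ratio of -0.41. Of 10 genes of receptor cleavage, the gamma-secretase subunits Psenen (110 and 122 TPM) and Ncstn (115 and 110 TPM) led, and Aph1c was lowest (1.82 and 1.20 TPM). In the nuclear complex, Snw1 (40.9 and 46.3 TPM) and the DNA-binding factor Rbpj (39.4 and 47.5 TPM) were highest of 9, and the coactivator Maml3 lowest (6.24 and 5.48 TPM). None of these 25 genes was 2-fold apart, where 4.24% of genes with a mean count of at least 200 were.

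Of 9 genes of receptor turnover and inhibition, Dtx3 (391 and 395 TPM) and Numbl (81.0 and 81.0 TPM) were highest and Dtx2 lowest (18.9 and 18.9 TPM). Of 5 direct targets, Hes5 (68.0 and 99.5 TPM) and Hes1 (46.7 and 47.1 TPM), repressors of proneural genes, were highest and Heyl lowest (4.40 and 2.96 TPM). The log2 ratios of the direct targets were mixed: 0.60 for Hes5, 0.41 for Hey1, -0.04 for Hes1, -0.06 for Hey2 and -0.54 for Heyl. Among 6 non-canonical ligands, Dlk1 was highest at 604 and 206 TPM with a log2 ratio of -1.59, Egfl7 followed at 164 and 141 TPM, and Nov (Ccn3) was lowest at 9.37 and 5.37 TPM. Dlk1 and Gxylt2 were the only pathway genes 2-fold apart, both lower in replicate 2, where the muscle, cartilage and skin lists were lower too. The part of those tissues in the 2 genes was not tested.

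The members lie on GRCm38, in GENCODE M21, as follows. Notch1 is at chr2:26457903-26516663, Jag1 at chr2:137081456-137116644 and Dll4 at chr2:119325784-119335962. Notch2 is at chr3:98013527-98150361, Lfng at chr5:140607320-140615545, Dll3 at chr7:28293553-28302238 and Jag2 at chr12:112907819-112929776. Chromosome 17 holds Dll1 at chr17:15367354-15376872, Notch3 at chr17:32120820-32166852 and Notch4 at chr17:34564268-34588503. Notch2, Dll4, Lfng and Notch4 are on the plus strand and the others on the minus strand. Antisense genes overlap Notch1, Notch3, Notch4, Dll1 and Dll4. The libraries are stranded per the labels, but whether counting used strand is not given in the sources used here, so a share of reads from those partners cannot be told apart.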

How the data were processed

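Members, lists and comparisons were chosen with earlier results of these data known. Per the labels and the text deposited beside the tables, each replicate was quantified on mm10 with GENCODE M4. Which aligner and quantifier were run is not stated in the labels or headers. The deposited tables give expected counts, TPM, FPKM and the percent of a gene's TPM in each transcript. Deposited series tables on mm9 (Ensembl 65) give RPKM in 2 fields and junction read counts.

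Symbols and transcript classes came from GENCODE M21 by stable identifier (42462 of 43346 genes matched). Expected counts were rounded and scaled by TMM (edgeR 4.0.16, R 4.3.3), with ratios at a prior count of 1. With 1 library on each side no test was run. The ratio script was checked on simulated counts. Alternatives were DESeq2 1.42.0 size factors, total counts, ERCC counts, other units and pseudocounts, and each replicate alone. Named were all members, transcripts with at least 5% of a gene's TPM, and from the lists used the 2 highest genes, the lowest, and those 2-fold apart. Other genes were named for their place beside a member or within their list. Assembled models and contigs were not used.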

Additional observations from a re-analysis of the deposited data

How the results depend on the processing

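With 2 libraries each lies within 1 SD of their mean by construction, so each replicate alone shows the range and not stability. The receptor sum ranged from 71.4 to 73.5 TPM, the ligand sum from 107 to 126 TPM, the log2 ratio of Delta-like to Jagged from 0.98 to 1.65, the Notch1 share from 32.4% to 36.6%, the Dll1 share from 39.8% to 48.8% and the coding share from 85.4% to 87.1%. In other units the receptor and ligand sums were 44.4 and 71.3 as FPKM, 362 and 209 as CPM, 9.34 and 13.6 as mm9 RPKM, and 64.1 and 94.0 as TPM of coding transcripts (added after the data were seen). CPM values, which are not per length, put receptors above ligands. They also gave a log2 ratio of Delta-like to Jagged of 0.59 and a Notch1 share of 38.1%. By mm9 RPKM the Notch1 share was 39.0%. Counting transcripts with at least 5% of their gene only, the coding share was 87.7%, from 86.3%. No member was 2-fold apart under the other scalings or pseudocounts. Taking members with any count changed nothing by construction, since all 10 pass a mean count of 200. The members' median log2 ratio was -0.03 and was 0.0073 with ERCC scaling, which moved the median of all genes to 0.06. Introns with reads numbered 220, 214 with at least 10 reads and 215 with reads in each field. No paired analysis was possible because the series has 1 group. With 2 libraries an SD is itself imprecise, and counting error is small beside the spread between libraries for Dll1, Dll3, Lfng and Jag1. Transcript shares of short models rest on few fragments.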
